A study of Mus musculus with 20 samples.

Results

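The 10 genes that set the pace of the G1 phase described here were followed across a mouse breast cancer cell series: the cyclin-dependent kinase (CDK) inhibitors Cdkn1a, Cdkn1b, Cdkn1c, Cdkn2c and Cdkn2d, the D cyclins Ccnd1, Ccnd2 and Ccnd3, and the E cyclins Ccne1 and Ccne2. They were chosen by name, not by their values. All 10 were found by their NCBI Gene numbers, among 19311 genes listed for 8 libraries in RPKM (reads scaled to gene length and library size) and 24454 genes listed for 12 libraries in CPM (counts scaled to library size). On GRCm38.p6, Cdkn1a lies at chr17:29090979-29100722, Cdkn1b at chr6:134920401-134925525, Cdkn1c at chr7:143458339-143461059, Cdkn2c at chr4:109660876-109666756 and Cdkn2d at chr9:21288459-21291421. Ccnd1 lies at chr7:144929931-144939831, Ccnd2 at chr6:127125162-127152188, Ccnd3 at chr17:47505051-47599689, Ccne1 at chr7:38097984-38107490 and Ccne2 at chr4:11190433-11204779. All are protein-coding genes, and the values are sums over whole genes. RPKM and CPM libraries were read apart, and levels were compared between genes only in RPKM, which is per length.

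The cells were breast cancer lines of the MMTV-PyMT strain, in which the polyoma middle T antigen is driven by the mouse mammary tumour virus promoter. In the RPKM libraries, M1, M2 and M3, 3 stable mesenchymal lines that are each 1 clone, were set against Py2T LT, Py2T cells grown for over 10 days with TGF-beta 1 at 2 ng/ml. These libraries are labelled 0 hours, and whether the clones received TGF-beta is not given in the labels. In the CPM libraries, all from clone M3, cells carried shTet2, shMbd3 or the control hairpin shControl, each with 2 µM CI994 for 72 hours or without it. Tet2 encodes an enzyme that oxidises methylated cytosine, Mbd3 a subunit of the NuRD repressor complex, and CI994 is a benzamide inhibitor of class I histone deacetylases. Each of the 10 groups had 2 replicates, which the labels describe as independent experiments.

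D cyclins bind the kinases Cdk4 and Cdk6, and E cyclins bind Cdk2. Both kinds of complex phosphorylate the retinoblastoma protein, which frees E2F factors to turn on the genes of DNA synthesis. The INK4 inhibitors, here p18 from Cdkn2c and p19 from Cdkn2d, bind Cdk4 and Cdk6 alone. The Cip/Kip inhibitors, p21 from Cdkn1a, p27 from Cdkn1b and p57 from Cdkn1c, bind cyclin-CDK complexes and above all hold back Cdk2. In the mammary gland Ccnd1 is needed for the growth of the lobules, and TGF-beta is known to arrest normal epithelium in G1 partly through these inhibitors.

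Depth was 16086082 to 24977595 reads in the CPM libraries and is unknown for the RPKM libraries. One library stood apart. Mbd3 was 22.1 and 27.7 CPM in the shMbd3 libraries, against 5.40 CPM in the library labelled shControl replicate 1 and 66.5 CPM in shControl replicate 2, so the level of 5.40 CPM goes against its label. Epcam and Vim, an epithelial and a mesenchymal marker, were 36.7 and 1461 CPM in this library, against 41.9 and 1525 CPM in shControl replicate 2. In untreated shMbd3 cells Epcam was 228 and 252 CPM and Vim 396 and 409 CPM. Krt8, also epithelial, was 324 CPM in this library, 1022 CPM in shControl replicate 2 and 692 and 691 CPM in untreated shMbd3 cells. What sets this library apart was not tested. Between the 2 shControl libraries the median log2 difference changed by -1.77 from the genes of lowest to those of highest GC content, and by -0.391 to -0.0159 between the replicates of the other 5 CPM groups. Member differences from untreated shControl are therefore given with and without this library, and so are list genes and list counts or medians. The number of all genes passing also changes in the fit without it. Counts from that fit are therefore not comparable with the shares of all genes given here. Tet2 was 8.41 and 7.97 CPM in shTet2 cells, against 15.1 and 13.8 CPM in shControl cells. Under CI994 the gap was narrower, at 6.30 and 7.42 CPM in shTet2 cells, against 8.13 and 11.4 CPM in shControl cells. That difference under CI994 did not pass in the fit of all 12 libraries. The lines expressed epithelial and mesenchymal markers together, and the endothelial marker sum stayed at or below 1.44 RPKM or 1.12 CPM in every library. In bulk RNA, fewer cells of a type and less RNA per cell cannot be told apart.

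Start-site windows are shown for the 3 members that were higher after CI994 in shControl cells, Cdkn1a, Cdkn2d and Ccnd3, and for Ccne1, the member lower in shTet2 cells with and without CI994. Each runs from 250 bases before to 50 bases from the start site on, on the gene's own strand, from RefSeq on GRCm38.p6. Of the members, 6 had entries, 9 windows in all; Cdkn1a, Cdkn2c and Ccnd3 had 2 start sites each. Capitals mark the GC box GGGCGG, bound by Sp1-type factors, on either strand (CCGCCC on the other).
Cdkn1a, chr17:29090729-29091028, plus strand: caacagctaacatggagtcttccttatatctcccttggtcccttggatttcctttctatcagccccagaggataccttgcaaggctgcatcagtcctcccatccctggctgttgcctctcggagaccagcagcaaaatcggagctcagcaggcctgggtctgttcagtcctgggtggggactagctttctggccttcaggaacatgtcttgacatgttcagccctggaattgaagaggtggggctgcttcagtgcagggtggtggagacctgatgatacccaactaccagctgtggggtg
Cdkn1a, chr17:29093519-29093818, plus strand: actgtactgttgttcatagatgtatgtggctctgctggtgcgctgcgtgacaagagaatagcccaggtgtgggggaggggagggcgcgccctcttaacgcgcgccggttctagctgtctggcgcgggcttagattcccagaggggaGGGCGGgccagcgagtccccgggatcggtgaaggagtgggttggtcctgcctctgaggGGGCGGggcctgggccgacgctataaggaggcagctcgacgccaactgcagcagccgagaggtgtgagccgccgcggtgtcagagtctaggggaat
Cdkn2d, chr9:21291160-21291459, minus strand: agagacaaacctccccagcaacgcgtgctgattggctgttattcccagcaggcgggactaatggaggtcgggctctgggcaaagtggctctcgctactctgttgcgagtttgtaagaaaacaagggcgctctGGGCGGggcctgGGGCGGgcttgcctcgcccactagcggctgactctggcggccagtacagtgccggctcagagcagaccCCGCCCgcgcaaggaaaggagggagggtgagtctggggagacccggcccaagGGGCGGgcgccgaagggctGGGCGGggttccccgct
Ccnd3, chr17:47504801-47505100, plus strand: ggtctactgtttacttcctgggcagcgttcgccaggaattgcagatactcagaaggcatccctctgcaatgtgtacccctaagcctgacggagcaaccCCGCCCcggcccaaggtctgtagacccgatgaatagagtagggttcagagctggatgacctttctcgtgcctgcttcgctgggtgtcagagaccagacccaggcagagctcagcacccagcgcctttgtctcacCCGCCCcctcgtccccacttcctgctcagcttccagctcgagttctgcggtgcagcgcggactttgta
Ccnd3, chr17:47593217-47593516, plus strand: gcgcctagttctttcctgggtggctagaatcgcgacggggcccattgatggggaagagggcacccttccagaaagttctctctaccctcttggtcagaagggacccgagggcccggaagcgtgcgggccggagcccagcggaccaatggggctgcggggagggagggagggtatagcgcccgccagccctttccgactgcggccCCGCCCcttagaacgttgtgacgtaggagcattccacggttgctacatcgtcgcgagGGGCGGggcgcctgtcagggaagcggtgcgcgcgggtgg
Ccne1, chr7:38107441-38107740, minus strand: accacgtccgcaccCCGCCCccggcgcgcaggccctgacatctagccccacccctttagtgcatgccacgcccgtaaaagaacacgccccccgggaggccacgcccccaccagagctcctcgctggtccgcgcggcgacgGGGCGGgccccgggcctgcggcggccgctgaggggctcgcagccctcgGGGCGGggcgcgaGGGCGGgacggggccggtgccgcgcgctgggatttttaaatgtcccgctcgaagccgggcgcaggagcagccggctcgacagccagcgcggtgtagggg
The downstream Cdkn1a window held 2 GC boxes, at -104 and -46 from the start, and the upstream one held 0. Cdkn2d held 5, Ccne1 held 4 and each Ccnd3 window held 2. Of the windows not printed, Cdkn1b held 1 and those of Cdkn2c held 4 and 0. Over all 32851 windows of this length, 35.7% held a GC box. The E2F motifs TTTGGCGC and TTTCCCGC, searched on both strands, were in none of the 9 windows and in 1.56% of all windows, and the E box CACGTG was in 1 Cdkn2c window and in 7.15% of all. These are matches of letters, not sites.

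The first comparison asks how the stable clones differ from cells held mesenchymal by TGF-beta. In the clones the INK4 gene Cdkn2c was about 2-fold higher and the E cyclin Ccne2 was higher, while Ccnd1, Ccne1, Cdkn1b and Ccnd3 were lower. Cdkn1c and Ccnd2 were listed at 0 in all 6 clone libraries. Limma with Benjamini-Hochberg adjustment over 11717 genes (adjusted p under 0.05) tested 9 of the 10 members, of which 2 were higher, 5 lower and 2 did not pass. Of all genes tested, 32.6% were higher and 32.4% lower, 65% in all, so the share of members called is near the background. The lower members include Cdkn1c, which entered the test through Py2T LT alone and had to be called, so 4 of the other 8 were lower. Counted with Cdkn1c, 3 members were higher and 4 lower in M1, beside 30.4% and 30.5% of all genes (60.9% in all). In M2, 2 were higher and 4 lower, beside 28.7% and 28.8% (57.5% in all), and in M3, 2 and 5, beside 30.3% and 29.1% (59.5% in all). Log2 differences are on the scale of log2(RPKM + 0.5), after scaling by TMM factors (trimmed mean of M-values).

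**Figure D1:**
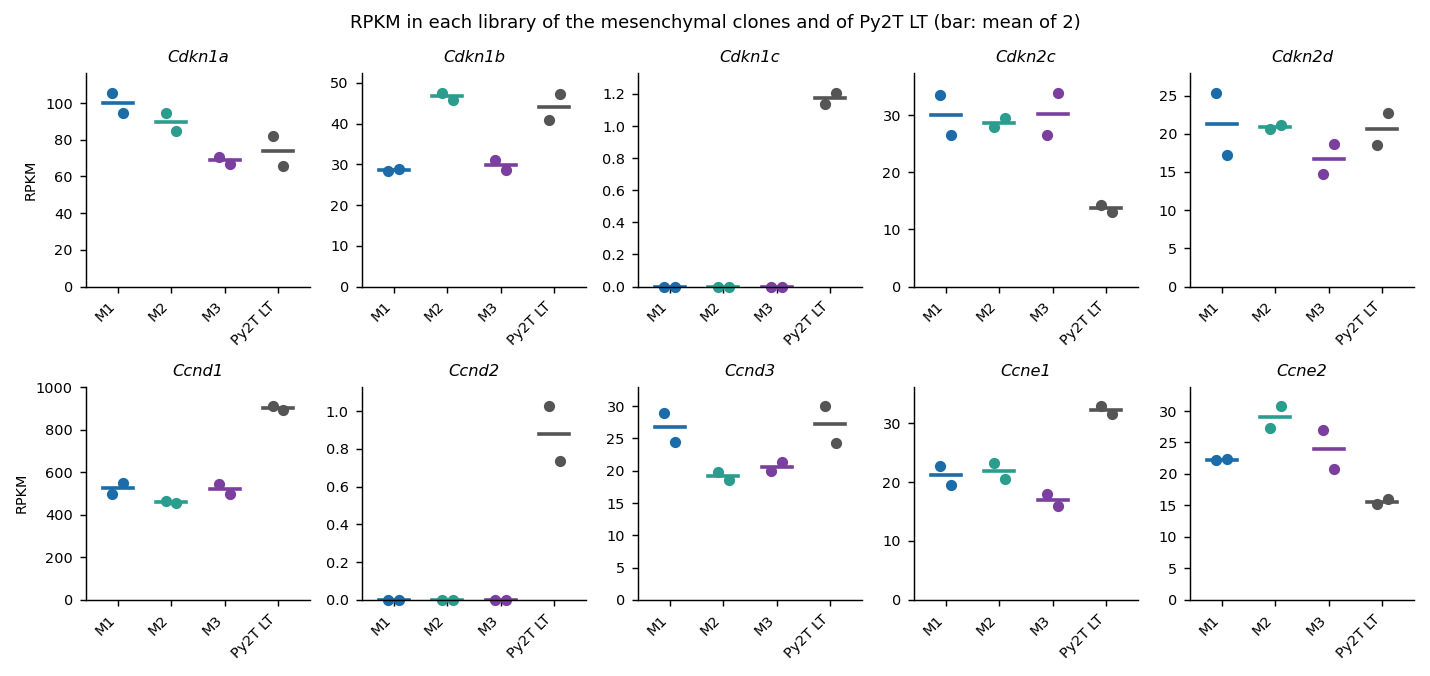
Each panel plots 1 gene in RPKM (y axis, from 0) in the 2 libraries of M1, M2, M3 and Py2T LT (x axis), with a bar at the mean of 2. All 6 clone libraries lie above both Py2T LT libraries for Cdkn2c and Ccne2 and below them for Ccnd1 and Ccne1, and Cdkn1b is low in M1 and M3 but not in M2.

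Among the INK4 inhibitors, Cdkn2c was 33.5 and 26.6 RPKM in M1, 27.9 and 29.4 RPKM in M2 and 26.6 and 34.0 RPKM in M3, against 14.4 and 13.0 RPKM in Py2T LT. Every clone library was above both Py2T LT libraries, and the clones overlapped one another. The log2 difference was 1.06 ± 0.12 (SE; adjusted p = 6.32e-05, limma), and it passed under all 15 alternative settings and in each clone. Cdkn2d was 14.7 to 25.4 RPKM in the clones, against 18.5 and 22.7 RPKM in Py2T LT, and its difference of -0.10 ± 0.15 did not pass (adjusted p = 0.593). Of the RPKM summed over both genes, Cdkn2c made up 56.9% to 64.5% in the clones, against 36.5% to 43.7% in Py2T LT. Thus Cdkn2c was the higher of the pair in every clone library and the lower in both Py2T LT libraries. The INK4 genes outside this set, Cdkn2a and Cdkn2b, were at most 0.0533 and 0.0483 RPKM in any clone library, against 65.5 and 53.5 RPKM for Cdkn2a and 45.1 and 47.9 RPKM for Cdkn2b in Py2T LT.

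Among the Cip/Kip inhibitors, Cdkn1b was 28.5 and 28.8 RPKM in M1, 47.6 and 45.9 RPKM in M2 and 31.2 and 28.6 RPKM in M3, against 40.9 and 47.3 RPKM in Py2T LT. M1 and M3 lay below Py2T LT, with log2 differences of -0.65 ± 0.10 (adjusted p = 0.000704, limma) and -0.55 ± 0.10 (adjusted p = 0.00194). M2 overlapped it, at 0.08 ± 0.10 (adjusted p = 0.552). Over the 3 clones the difference was -0.38 ± 0.08 (adjusted p = 0.00416), and it ended without Py2T LT replicate 2 (-0.29, adjusted p = 0.0589). The clones themselves differed in Cdkn1b (limma F test, adjusted p = 0.00305), as did 25.7% of all genes.

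Cdkn1a was 105.7 and 94.5 RPKM in M1, 94.3 and 84.8 RPKM in M2 and 70.6 and 66.9 RPKM in M3, against 82.2 and 65.8 RPKM in Py2T LT. The level order was M1, M2, Py2T LT and M3, and the last pair overlapped. M1 was higher than Py2T LT by 0.40 ± 0.12 (adjusted p = 0.0203, limma), but by 0.22 (adjusted p = 0.209) without Py2T LT replicate 2 and by 0.33 (adjusted p = 0.0627) without M1 replicate 1. M2 was 0.27 ± 0.12 above it (adjusted p = 0.088) and M3 0.09 below it (adjusted p = 0.528), and neither passed. The M2 difference passed after removal of the GC trend (0.35, adjusted p = 0.0252) and without Py2T LT replicate 1 (0.41, adjusted p = 0.039). Pooled over the clones, 0.19 ± 0.10 did not pass either (adjusted p = 0.122). The F test over the 3 clones passed (adjusted p = 0.0387), and it failed when either library of M2 or M3 was left out (adjusted p 0.0894 to 0.163) and with no filter (adjusted p = 0.0603).
Cdkn1c, an imprinted gene in mice, was listed at 0 in every clone library, against 1.14 and 1.21 RPKM in Py2T LT. It passed the filter of 1 RPKM in 2 libraries through Py2T LT alone, so its call as lower had to follow, and no fold is given. In the 12 M3 shRNA libraries it had 0 reads, and a count of 0 leaves room for 0.120 to 0.186 CPM, by library.

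Among the D cyclins, Ccnd1 carried 94.5% to 97.3% of the summed RPKM in all 8 libraries. It was 499 and 549 RPKM in M1, 465 and 455 RPKM in M2 and 544 and 499.7 RPKM in M3, against 912 and 893 RPKM in Py2T LT. No clone library came near Py2T LT, and the pooled difference was -0.87 ± 0.08 (adjusted p = 2.59e-05, limma), below the threshold under all 15 alternatives. The F test among the clones did not pass (adjusted p = 0.28). Ccnd3 was 29.0 and 24.5 RPKM in M1, 19.7 and 18.6 RPKM in M2 and 19.9 and 21.3 RPKM in M3, against 30.0 and 24.3 RPKM in Py2T LT. M1 overlapped Py2T LT (-0.06 ± 0.12, adjusted p = 0.675), whereas M2 (-0.50 ± 0.12, adjusted p = 0.00849) and M3 (-0.38 ± 0.12, adjusted p = 0.0264) lay below it. The pooled call, -0.31 ± 0.10 (adjusted p = 0.0233), ended without Py2T LT replicate 1 (-0.19, adjusted p = 0.238), and also without M2 replicate 2 (adjusted p = 0.0583) or M3 replicate 1 (adjusted p = 0.0521). Without Py2T LT replicate 2 it was -0.48. For M2 alone the call ended without Py2T LT replicate 1 (adjusted p = 0.071) or M2 replicate 2 (adjusted p = 0.0687), and for M3 alone without Py2T LT replicate 1 (adjusted p = 0.16) or either M3 library (adjusted p 0.0607 and 0.12).
Ccnd2, a D cyclin known in ovary and lymphocytes, was listed at 0 in every clone library, against 1.03 and 0.736 RPKM in Py2T LT. It did not reach the filter. In the M3 shRNA libraries it had 0 reads except 2 reads in shControl with CI994, replicate 1 (0.0801 CPM), which is under the limit that a count of 0 allows.

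The E cyclins moved in opposite directions. Ccne1 was 22.7 and 19.6 RPKM in M1, 23.3 and 20.5 RPKM in M2 and 17.96 and 15.9 RPKM in M3, against 32.9 and 31.5 RPKM in Py2T LT. Ccne2 was 22.2 and 22.4 RPKM in M1, 27.3 and 30.8 RPKM in M2 and 27.0 and 20.7 RPKM in M3, against 15.2 and 16.0 RPKM in Py2T LT. No clone library overlapped Py2T LT for either gene. The log2 difference was -0.71 ± 0.09 for Ccne1 (adjusted p = 0.000181, limma) and 0.64 ± 0.11 for Ccne2 (adjusted p = 0.000912), and both passed under all 15 alternatives. In M1 alone the Ccne2 difference of 0.46 ± 0.13 (adjusted p = 0.0161) ended without Py2T LT replicate 1 (adjusted p = 0.096) or replicate 2 (adjusted p = 0.055). Ccne1 made up 39.9% to 50.6% of the summed E cyclin RPKM in the clones, against 66.4% to 68.5% in Py2T LT. The sum itself was 36.7 to 51.3 RPKM in the clones, against 47.5 and 48.1 RPKM in Py2T LT, which overlapped.

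**Figure D2:**
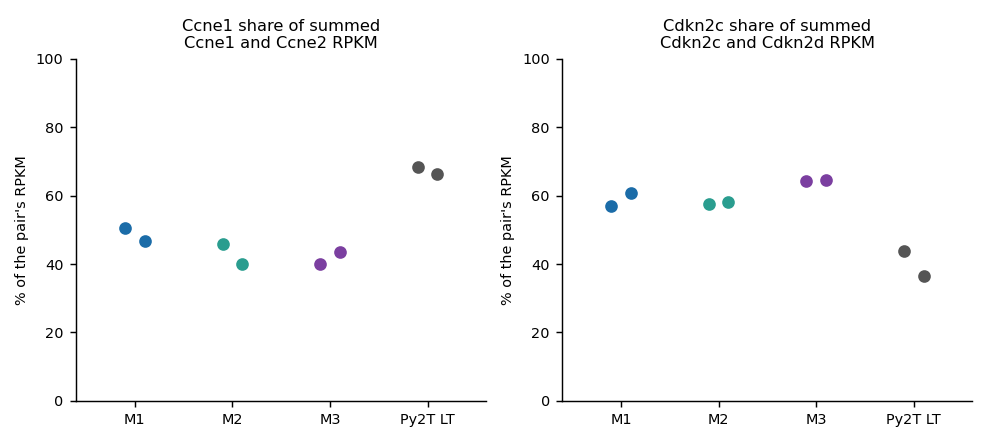
The share (y axis, percent of the pair's summed RPKM, from 0 to 100) of Ccne1 in the E cyclins (left) and of Cdkn2c in Cdkn2c plus Cdkn2d (right), 1 point per library of M1, M2, M3 and Py2T LT. Ccne1 holds 39.9% to 50.6% in the clones, against 66.4% to 68.5% in Py2T LT, and Cdkn2c holds 56.9% to 64.5%, against 36.5% to 43.7%.

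Around these genes, 4 lists of the pathway were read in the same fit. Of 25 other G1 genes (kinases and their regulators, the other INK4 genes, the retinoblastoma family and E2F genes), 7 were higher, 11 lower and 7 did not pass, with a median of -0.02, beside 0.00 over all genes. The lower ones include Cdkn2a and Cdkn2b, which entered the test through Py2T LT alone and had to be called. The repressor E2f8 was 78.6 RPKM on average in the clones, against 34.8 RPKM in Py2T LT (1.14 ± 0.11, adjusted p = 2.43e-05, limma). The p130 gene Rbl2 was higher by 0.86 ± 0.11 (adjusted p = 0.000141). Of 28 S phase and mitosis genes, 12 were higher and 8 lower, with a median of 0.13. The helicase subunit Mcm6 (0.77 ± 0.10) was higher, and the mitotic genes Ccnb2 (-0.88 ± 0.11) and Cdk1 (-0.71 ± 0.10) lower. The list thus held members moving each way.
Of 24 p53 targets, 11 were higher and 8 lower, with a median of 0.33. Trp53inp1 (1.98 ± 0.15) and Perp (1.92 ± 0.08), which promote cell death, were higher, while the p53 ligase Mdm2 averaged 47.5 RPKM in the clones, against 667 RPKM in Py2T LT (-3.83 ± 0.08), and the stress gene Gadd45a was lower (-3.22 ± 0.14). Of 16 tested factors known to act on these promoters, 5 were higher and 6 lower, with a median of 0.12. Id1 (2.37 ± 0.14) and Id2 (2.22 ± 0.14), which block E proteins, were higher. Myc (-0.95 ± 0.11), which represses Cdkn1a, and Foxo1 (-1.74 ± 0.13), which activates Cdkn1b, were lower. All 8 of these had adjusted p of 9.77e-05 or less (limma). Mesenchymal marker sums were 1034 to 1570 RPKM in the clones, against 2898 to 3005 RPKM in Py2T LT. The sum hides genes that moved each way: of the 6, 3 were higher and 3 lower, with a median of 0.47. The epithelial marker sum was 1302 to 1935 RPKM in the clones, against 1145 to 1182 RPKM. The part of both marker sets in the member results was not tested.

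In the M3 shRNA libraries 8 members could be tested, in a fit of 12808 genes. All 6 Cdkn2d values with CI994 lay above all 6 without it. For Cdkn1a, Ccnd3 and Ccne1 the 2 libraries with CI994 lay above the 2 untreated ones for each hairpin, though not all of these differences passed. For Ccne1 all 4 shTet2 libraries lay below the other 8. The share of all tested genes whose libraries separate in these ways is not given. Such separations, here and for the clones, are therefore description only.

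**Figure D3:**
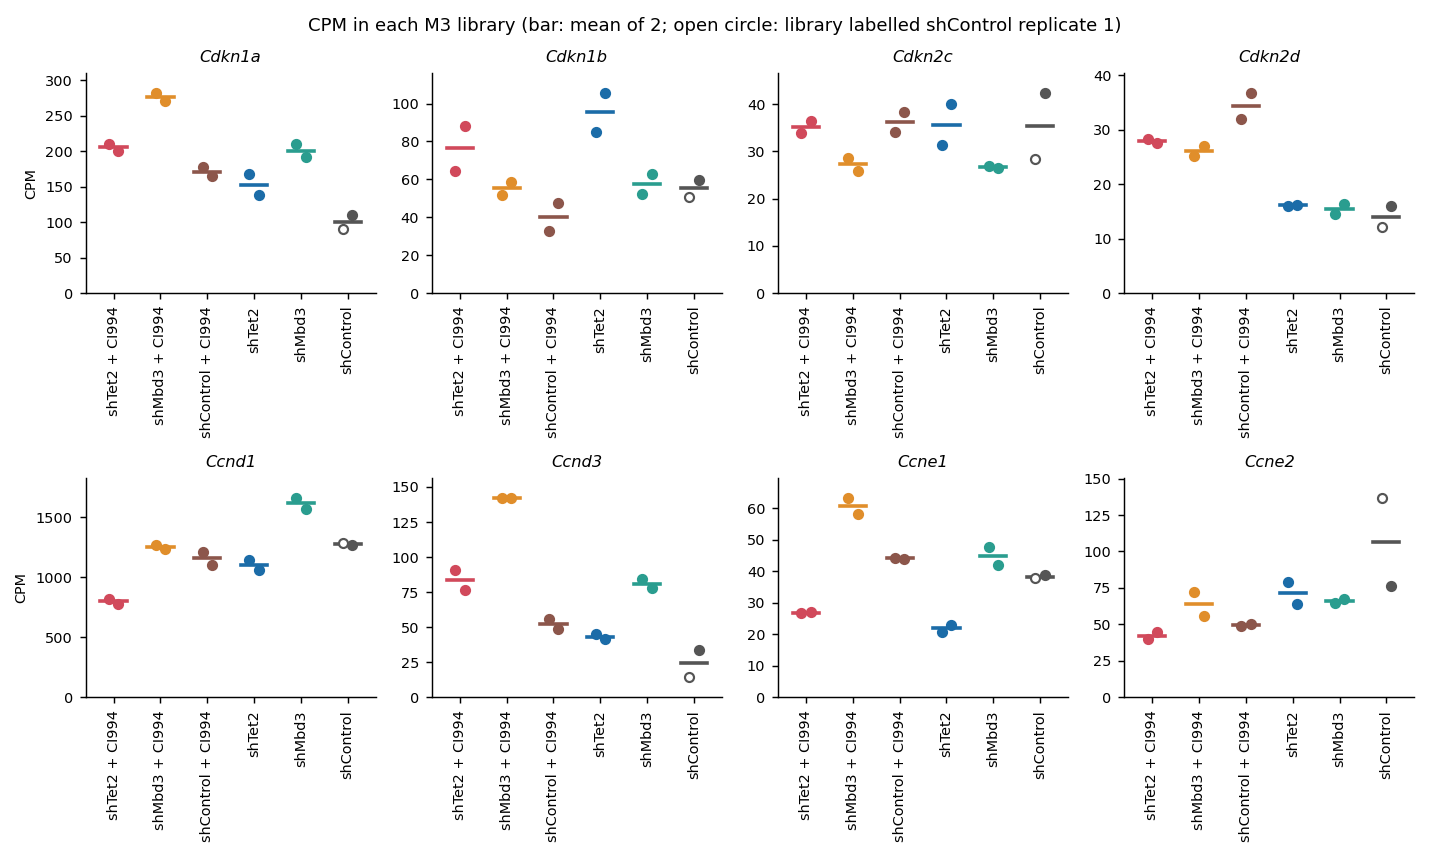
Each panel plots 1 gene in CPM (y axis, from 0) in the 2 libraries of each M3 group (x axis; the 3 CI994 groups left, the 3 untreated groups right), with a bar at the mean of 2 and an open circle for the library labelled shControl replicate 1. Cdkn2d is 25.1 to 36.7 CPM with CI994, against 12.1 to 16.4 CPM without it, and Ccne1 is 20.8 to 27.0 CPM with shTet2, against 37.8 to 44.2 CPM with shControl.

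The question of CI994 is which of these genes respond to deacetylase inhibition. In shControl cells 3 members were higher (Cdkn1a, Cdkn2d and Ccnd3) and 1 lower (Ccne2), beside 17.9% and 15.7% of all genes (33.6% in all). In shTet2 cells 1 was higher (Cdkn2d) and 1 lower (Ccnd1), beside 12.6% and 11.7% (24.3% in all). In shMbd3 cells 3 were higher (Cdkn1a, Cdkn2d and Ccne1) and 1 lower (Ccnd1), beside 7.58% and 5.11% (12.7% in all). Member counts without the library labelled shControl replicate 1 are not set beside these shares, because the number of all genes passing changes in that fit.

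Cdkn2d rose in all 3 settings. It was 31.9 and 36.7 CPM with CI994 in shControl cells, against 12.1 and 15.9 CPM untreated. In shTet2 cells it was 28.2 and 27.5 CPM with CI994, against 16.0 and 16.2 CPM untreated. In shMbd3 cells it was 25.1 and 26.9 CPM with CI994, against 14.5 and 16.4 CPM untreated. All 6 treated libraries were above all 6 untreated ones. The log2 differences, on the scale of log2(CPM + 0.5), were 1.24 ± 0.14 in shControl (adjusted p = 0.000572, limma), 0.70 ± 0.14 in shTet2 (adjusted p = 0.00714) and 0.73 ± 0.14 in shMbd3 (adjusted p = 0.00961). The shControl value was 1.11 ± 0.12 (adjusted p = 0.000129) without the library labelled shControl replicate 1, and the call held under all 21 alternatives. With the trend over GC content removed it was 0.82 in shControl and 0.42 in shTet2, and both passed. In shTet2 the call ended without either shTet2 library (adjusted p 0.0514 and 0.0503) or shTet2 with CI994 replicate 1 (adjusted p = 0.0651). In shMbd3 it ended without shMbd3 replicate 1 (adjusted p = 0.0956) or either shMbd3 library with CI994 (adjusted p 0.0604 and 0.08).

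Cdkn1a, whose gene is a well-known target of deacetylase inhibitors, was 176.9 and 164.9 CPM with CI994 in shControl cells, against 90.3 and 110.1 CPM untreated. It was 281 and 269.9 CPM with CI994 in shMbd3 cells, against 209 and 192 CPM untreated. In shTet2 cells it was 210.5 and 199.7 CPM with CI994, against 168 and 138 CPM untreated. Treated libraries exceeded their untreated ones in each setting, and the difference passed in shControl (0.74 ± 0.12, adjusted p = 0.00378, limma) and shMbd3 (0.45 ± 0.12, adjusted p = 0.0424) but not in shTet2 (0.36 ± 0.12, adjusted p = 0.0602). It passed in all 3 without the library labelled shControl replicate 1, at 0.66 ± 0.12 in shControl (adjusted p = 0.00206), 0.45 ± 0.09 in shMbd3 (adjusted p = 0.00355) and 0.36 ± 0.09 in shTet2 (adjusted p = 0.0075). The shControl call held under all 21 alternatives, with 0.43 after removal of the GC trend. The shMbd3 call ended under 10 of 21, among them the GC trend (0.37, adjusted p = 0.0612), no filter (adjusted p = 0.0626) and the omission of any shMbd3 library (adjusted p 0.128 to 0.229).

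The D cyclins did not move together. Ccnd1 was 822 and 776 CPM with CI994 in shTet2 cells, against 1143 and 1064 CPM untreated (-0.53 ± 0.10, adjusted p = 0.00699, limma). In shMbd3 cells it was 1271 and 1234 CPM with CI994, against 1663 and 1567 CPM untreated (-0.37 ± 0.10, adjusted p = 0.045). In shControl cells it was 1211 and 1101 CPM, against 1288 and 1268 CPM, and -0.18 ± 0.10 did not pass (adjusted p = 0.182), with -0.11 (adjusted p = 0.393) without the library labelled shControl replicate 1. That value was -0.67 and passed (adjusted p = 0.0367) after removal of the GC trend, and was -0.25 and passed without shControl replicate 2 (adjusted p = 0.0269). The shTet2 call ended without shTet2 replicate 1 (adjusted p = 0.0638) or shTet2 with CI994 replicate 2 (adjusted p = 0.0579), and its value was -0.87 after removal of the GC trend. The shMbd3 call ended under 12 of 21 alternatives, with adjusted p up to 0.275.
Ccnd3 was 55.8 and 49.0 CPM with CI994 in shControl cells, against 14.4 and 33.9 CPM untreated, the 14.4 CPM being the library that stood apart. It was 91.0 and 76.2 CPM with CI994 in shTet2 cells, against 44.9 and 41.7 CPM untreated, and 142.0 and 142.5 CPM with CI994 in shMbd3 cells, against 84.1 and 78.2 CPM untreated. No treated library overlapped its untreated pair. The shControl difference of 1.19 ± 0.28 (adjusted p = 0.015) was 0.64 ± 0.12 (adjusted p = 0.00303) without that library and 0.60 after removal of the GC trend, and the call ended without either shControl library with CI994 (adjusted p 0.0906 and 0.0604). In shTet2 (0.87 ± 0.28, adjusted p = 0.0528) and shMbd3 (0.80 ± 0.28, adjusted p = 0.1) it did not pass. Without the library labelled shControl replicate 1 the same 2 differences had an SE of 0.10, because all 12 libraries share 1 estimate of the spread, and passed (adjusted p = 5.26e-05 and 0.000167).

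Among the E cyclins, Ccne2 was 48.7 and 50.04 CPM with CI994 in shControl cells, against 137 and 76.3 CPM untreated, 137 CPM again being the library that stood apart. The difference was -1.08 ± 0.27 (adjusted p = 0.0181, limma), -0.60 ± 0.16 (adjusted p = 0.0164) without that library and -0.57 after removal of the GC trend, and it ended without either shControl library with CI994 (adjusted p 0.0897 and 0.0845). In shTet2 cells Ccne2 was 39.7 and 44.6 CPM with CI994, against 79.2 and 64.1 CPM untreated (-0.82 ± 0.27, adjusted p = 0.0537; adjusted p = 0.00036 without the library labelled shControl replicate 1). In shMbd3 cells the libraries overlapped, at 72.1 and 55.5 CPM with CI994, against 64.4 and 67.7 CPM untreated. Ccne1 was 63.3 and 58.1 CPM with CI994 in shMbd3 cells, against 47.7 and 42.0 CPM untreated (0.43 ± 0.12, adjusted p = 0.0414). That call ended under 11 of 21 alternatives (adjusted p up to 0.25). In shControl (0.17 ± 0.12, adjusted p = 0.253, and 0.21 without the library that stood apart) and in shTet2 (0.22 ± 0.12, adjusted p = 0.179) it did not pass.

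The remaining inhibitors did not pass with CI994 in the fit of group means. Cdkn1b was 32.9 and 47.8 CPM with CI994 in shControl cells, against 50.7 and 59.7 CPM untreated (-0.50 ± 0.21, adjusted p = 0.0851, limma). In each of the 6 groups Cdkn1b was lower in replicate 1 than in replicate 2. With a replicate block the same difference passed (adjusted p = 0.013, limma), as did -0.40 in shTet2 cells (adjusted p = 0.0339). In shControl cells the difference was -0.06 (adjusted p = 0.887, limma) after removal of the GC trend. It was -0.56 ± 0.23 without the library labelled shControl replicate 1. Cdkn2c overlapped between treated and untreated libraries in all 3 settings, with log2 differences of -0.07 to 0.03, and of -0.20 (adjusted p = 0.313) in shControl without the library labelled shControl replicate 1.

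Markers of blood cells moved with CI994. The summed haematopoietic markers were 10.3 to 20.7 CPM in the 6 treated libraries, against 1.59 to 3.83 CPM in the 6 untreated ones, mostly through Cd68 and Lyz2. The defining markers Ptprc and Cd3e were at most 0.378 and 0.0423 CPM in any library, and 2 of the 5 markers stayed under 1 CPM throughout. Mesenchymal marker sums were also higher with CI994, at 8291 to 8731 CPM against 4392 to 6122 CPM in shControl cells. They were 7792 to 8919 CPM against 2949 to 3063 CPM in shTet2 cells and 4165 to 4574 CPM against 2815 to 3117 CPM in shMbd3 cells. The 6 mesenchymal genes did not rise as a set. In shControl cells 1 was higher and 2 lower (median -0.14), in shTet2 cells 2 and 2 (-0.02) and in shMbd3 cells 1 and 1 (0.04). The part of the blood and mesenchymal markers in the member results was not tested.

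The Tet2 question is what changes with less Tet2. In untreated cells shTet2 gave 3 members higher (Cdkn1a, Cdkn1b and Ccnd3) and 1 lower (Ccne1), beside 10.5% and 12.9% of all genes (23.4% in all). Counts without the library labelled shControl replicate 1 are not set beside these shares, because the number of all genes passing changes in that fit. Under CI994 shTet2 gave 1 higher (Cdkn1b) and 2 lower (Ccnd1 and Ccne1), beside 6.69% and 9.28% (16% in all). Without that library, which enters the comparison under CI994 through the spread only, Ccnd3 (0.66, adjusted p = 0.000447) and Cdkn2d (-0.30, adjusted p = 0.0323) were called there too. Both comparisons called Cdkn1b higher and Ccne1 lower, in separate pairs of libraries.

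Ccne1 was 20.8 and 23.0 CPM in shTet2 cells, against 37.8 and 38.8 CPM in shControl cells. Under CI994 it was 26.7 and 27.0 CPM in shTet2 cells, against 44.2 and 44.0 CPM in shControl cells. Every shTet2 library was below every shControl library. The log2 difference was -0.77 ± 0.12 untreated (adjusted p = 0.00163, limma), -0.73 ± 0.11 (adjusted p = 0.000721) without the library labelled shControl replicate 1, and -0.71 ± 0.12 under CI994 (adjusted p = 0.00291). Both calls held under all 21 alternatives.
Cdkn1b was 85.2 and 105.5 CPM in shTet2 cells, against 50.7 and 59.7 CPM in shControl cells, and 64.6 and 88.3 CPM against 32.9 and 47.8 CPM under CI994. The groups did not overlap, though the replicates were wide apart. Differences were 0.81 ± 0.21 untreated (adjusted p = 0.0222, and 0.75 ± 0.23 with adjusted p = 0.0258 without the library labelled shControl replicate 1) and 0.91 ± 0.21 under CI994 (adjusted p = 0.0172). The untreated call ended without either shTet2 library (adjusted p 0.0504 and 0.16), and the other without shControl with CI994 replicate 1 (0.65, adjusted p = 0.137) or shTet2 with CI994 replicate 2 (0.69, adjusted p = 0.144).

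Cdkn1a was higher in untreated shTet2 cells by 0.63 ± 0.12 (168 and 138 CPM, against 90.3 and 110.1 CPM; adjusted p = 0.00608, limma), and by 0.55 ± 0.12 (adjusted p = 0.00436) without the library labelled shControl replicate 1. The call ended without shTet2 replicate 1 (0.49, adjusted p = 0.0589). Under CI994 the 0.26 ± 0.12 between shTet2 and shControl did not pass (adjusted p = 0.208). Ccnd3 was 44.9 and 41.7 CPM in shTet2 cells, against 14.4 and 33.9 CPM, a difference of 0.98 ± 0.28 (adjusted p = 0.0348). The difference without the library labelled shControl replicate 1 was 0.44 ± 0.12 (adjusted p = 0.019), without shControl replicate 2 it was 1.53 and after removal of the GC trend 0.62. The Ccnd3 call ended under 12 of 21 alternatives, among them values as deposited (adjusted p = 0.0531) and no filter (adjusted p = 0.0506). Ccnd1 under CI994 was 822 and 776 CPM in shTet2 cells, against 1211 and 1101 CPM in shControl cells (-0.54 ± 0.10, adjusted p = 0.00676), and the call ended without shControl with CI994 replicate 1 (-0.46, adjusted p = 0.0725) or shTet2 with CI994 replicate 2 (-0.49, adjusted p = 0.0718). Untreated, -0.18 ± 0.10 did not pass (adjusted p = 0.216). Cdkn2c (0.06), Cdkn2d (0.24) and Ccne2 (-0.49) did not pass in untreated shTet2 cells either. Without the library labelled shControl replicate 1 the untreated values were -0.11 for Ccnd1, -0.17 for Cdkn2c, 0.10 for Cdkn2d and -0.01 for Ccne2, and none of these 4 passed. The epithelial marker sum was 3314 to 3758 CPM in shTet2 cells, against 959 CPM in the library labelled shControl replicate 1 and 2466 CPM in the other, and its part in these results was not tested.

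With shMbd3, the depletion of a NuRD subunit, 2 members were higher (Cdkn1a and Ccnd3) and 0 lower in untreated cells, beside 15.3% and 16.9% of all genes (32.2% in all). By limma, 5 of the 8 had an unadjusted p under 0.05, beside 5941 of all 12808 genes tested. EdgeR called 2 higher and 0 lower, and DESeq2 3 and 1. The shares of all genes called by edgeR and DESeq2 are not reported here, so these counts have no background beside them. Differences without the library labelled shControl replicate 1 are given gene by gene below. Under CI994, 3 were higher (Cdkn1a, Ccnd3 and Ccne1) and 0 lower, beside 8.11% and 11% (19.1% in all). EdgeR also gave 3 and 0, and DESeq2 3 and 1. By limma, 5 had an unadjusted p under 0.05, beside 4047 of all 12808 genes tested. Without the library labelled shControl replicate 1, which enters here through the spread only, Cdkn2c (-0.44, adjusted p = 0.0109) and Cdkn2d (-0.42, adjusted p = 0.00542) were called lower as well. Mbd3 itself was 16.6 and 21.9 CPM in shMbd3 cells with CI994, against 53.6 and 67.7 CPM in shControl cells with CI994, so this comparison rests on no library that went against its label.

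Ccnd3 had the widest difference of the 8 in both. It was 84.1 and 78.2 CPM in shMbd3 cells, against 14.4 and 33.9 CPM in shControl cells (1.79 ± 0.28, adjusted p = 0.00204, limma), and 1.24 ± 0.12 (adjusted p = 3.23e-05) without the library labelled shControl replicate 1. That call held under all 21 alternatives. Under CI994 it was 142.0 and 142.5 CPM in shMbd3 cells, against 55.8 and 49.0 CPM in shControl cells (1.40 ± 0.28, adjusted p = 0.00807). The call under CI994 ended without shControl with CI994 replicate 2 (adjusted p = 0.0683) or either shMbd3 library with CI994 (adjusted p 0.0534 and 0.0528).
Cdkn1a was 209 and 192 CPM in shMbd3 cells, against 90.3 and 110.1 CPM in shControl cells. The difference was 0.94 ± 0.12 (adjusted p = 0.000702), and 0.86 ± 0.12 (adjusted p = 0.000279) without the library labelled shControl replicate 1, and it held under all 21 alternatives. Under CI994 it was 0.65 ± 0.12 (adjusted p = 0.00568), lost without shControl with CI994 replicate 2 (adjusted p = 0.0515) or shMbd3 with CI994 replicate 1 (adjusted p = 0.0508). Ccne1 was higher under CI994, at 63.3 and 58.1 CPM against 44.2 and 44.0 CPM (0.42 ± 0.12, adjusted p = 0.0326), a call that ended under 8 of 21 alternatives; untreated, 0.16 ± 0.12 did not pass (adjusted p = 0.293), nor did 0.20 without the library labelled shControl replicate 1. Cdkn1b (-0.00) and Cdkn2d (0.09) did not pass in untreated shMbd3 cells, with -0.06 and -0.05 without that library and 0.39 and -0.29 after removal of the GC trend.

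The calls of Cdkn2c and Ccnd1 in untreated shMbd3 cells depended on the setting, including the library that stood apart. With all 12 libraries Cdkn2c passed after removal of the GC trend (-0.45, adjusted p = 0.0465, limma). Cdkn2c was 26.8 and 26.4 CPM in shMbd3 cells, against 28.3 and 42.3 CPM in shControl cells. The difference was -0.43 ± 0.17 (adjusted p = 0.0805), and -0.66 ± 0.14 (adjusted p = 0.00484) without the library labelled shControl replicate 1. Ccnd1 was 1663 and 1567 CPM in shMbd3 cells, against 1288 and 1268 CPM in shControl cells. It differed by 0.27 ± 0.10 (adjusted p = 0.0669), and by 0.34 ± 0.09 (adjusted p = 0.0132) without that library. With all 12 libraries Ccnd1 passed in the values as deposited (0.34, adjusted p = 0.0202, limma) and with a replicate block (adjusted p = 0.0187). After removal of the GC trend its direction turned, to -0.16 (adjusted p = 0.579). Ccne2, at -0.69 ± 0.27 (adjusted p = 0.0769), was -0.21 ± 0.16 (adjusted p = 0.331) without it. Mesenchymal marker sums were 2815 to 3117 CPM in shMbd3 cells, against 4392 to 6122 CPM in shControl cells, and their part in these results was not tested.

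**Figure D4:**
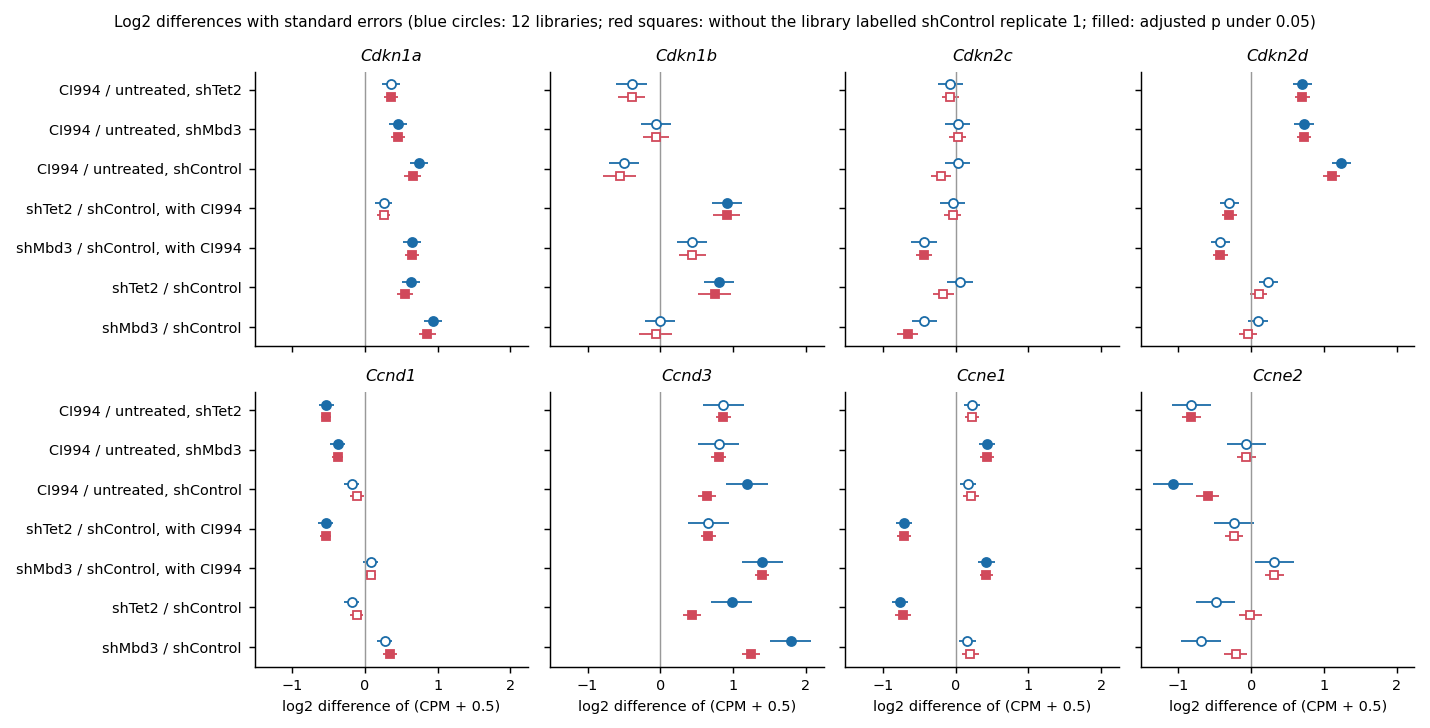
Log2 differences of CPM + 0.5 (x axis) with standard errors for the 8 tested members in 7 comparisons (y axis), from all 12 libraries (blue circles) and without the library labelled shControl replicate 1 (red squares); filled symbols have an adjusted p under 0.05. Cdkn2d is to the right of 0 in the 3 CI994 comparisons, Ccne1 to the left of 0 in both shTet2 comparisons, and the Ccnd3 difference in untreated shMbd3 is 1.79 with the library and 1.24 without it.

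Whether CI994 and a hairpin act on the members jointly was read from the interaction, the hairpin's difference with CI994 minus that without it. For both shTet2 and shMbd3, 0 of 8 members passed by limma, edgeR and DESeq2. By limma 0.687% of all genes passed for shTet2 (0.414% higher, 0.273% lower) and 0.0781% for shMbd3 (0.039% in each direction). The unadjusted p was under 0.05 for 1483 of 12808 genes for shTet2 and 1631 for shMbd3, and for 2 members in each. These were Cdkn2d (-0.54 ± 0.19) and Ccnd1 (-0.35 ± 0.15) for shTet2, and Cdkn2d (-0.51 ± 0.19) and Ccne2 (1.01 ± 0.38) for shMbd3. Without the library labelled shControl replicate 1, Cdkn2d was -0.40 ± 0.16 and -0.38 ± 0.16 (adjusted p = 0.134 and 0.257), Ccne2 for shMbd3 was 0.53 ± 0.20 (adjusted p = 0.226) and Ccnd1 for shTet2 was -0.42 ± 0.12 (adjusted p = 0.0543). With shControl replicate 2 left out in its place, untreated shControl was that 1 library. Cdkn2d was then -0.67 for shTet2 and -0.64 for shMbd3, and Ccne2 for shMbd3 was 1.49. Some directions turned with the library left out. Ccnd3 was 0.22 for shTet2 and 0.16 for shMbd3 without replicate 1, and -0.87 and -0.94 without replicate 2. Ccne2 for shTet2 was -0.22 without replicate 1 and 0.74 without replicate 2. These values show neither a difference between the hairpin's effects with and without CI994 nor its absence.

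The pathway lists in these libraries shared control samples between comparisons and are given for each. With CI994, of 23 tested other G1 genes, 2 were higher and 7 lower in shControl cells (median -0.22), 1 and 7 in shTet2 cells (median -0.20) and 0 and 1 in shMbd3 cells (median -0.19), beside 0.03, 0.01 and 0.00 over all genes. Without the library labelled shControl replicate 1 the medians were -0.12, -0.20 and -0.19. Cdk6, a partner of the D cyclins, averaged 160.6 CPM with CI994 in shControl cells, against 246.8 CPM untreated (-0.65 ± 0.11, adjusted p = 0.00436, limma), and the difference was -0.50 without that library. E2f8 was lower in shTet2 cells with CI994 (-0.79 ± 0.10, adjusted p = 0.00089) and in shMbd3 cells (-0.45 ± 0.10, adjusted p = 0.0191), and E2f2 was higher in shControl cells (0.98 ± 0.14, adjusted p = 0.00169; 0.81 without it). Of 28 S phase and mitosis genes, 3 were higher and 6 lower in shControl cells, 0 and 4 in shTet2 cells and 0 and 2 in shMbd3 cells. Their medians were -0.12, -0.24 and -0.12, and -0.05, -0.24 and -0.12 without that library.
Of 24 p53 targets, 6, 7 and 3 were higher with CI994 in shControl, shTet2 and shMbd3 cells, and 1, 0 and 0 lower. The medians were 0.03, 0.12 and 0.20, and 0.15, 0.12 and 0.20 without the library that stood apart. Plk2, a kinase of centriole duplication, was higher in shControl (1.27 ± 0.30, adjusted p = 0.0144; 1.69 without it) and shTet2 cells (1.52 ± 0.30, adjusted p = 0.00758). Among 16 tested upstream factors, Id1 was higher with CI994 in all 3 settings (1.48, 1.70 and 1.26, each ± 0.16), and Bmi1, a Polycomb gene known for silencing Cdkn2a, was lower (-1.46, -1.29 and -1.01, each ± 0.15). In shControl cells these were 1.24 for Id1 and -1.30 for Bmi1 without that library. Of these 16, 1 was higher and 6 lower in shControl cells, 1 and 4 in shTet2 cells and 1 and 2 in shMbd3 cells. Their medians were -0.04, -0.14 and -0.05, and -0.15, -0.14 and -0.05 without that library.

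Between hairpins, 6 of the 24 p53 targets were higher and 1 lower in untreated shTet2 cells (median 0.25, beside 0.02 over all genes), and 6 were higher and 3 lower in untreated shMbd3 cells (median 0.25, beside 0.00). Without the library labelled shControl replicate 1, 10 were higher and 0 lower in shTet2 cells (median 0.31), and 8 and 3 in shMbd3 cells (median 0.20). Btg2, an antiproliferative gene, was among those higher in both, by 1.58 ± 0.24 (adjusted p = 0.00179, limma) and 1.51 ± 0.24 (adjusted p = 0.00208), with 1.85 and 1.79 without that library. Of the S phase and mitosis genes, 0 were higher and 3 lower in shTet2 cells, where 25 of 28 did not pass, and Top2a averaged 1016 CPM, against 2062 CPM in shControl cells (-0.97 ± 0.18, adjusted p = 0.00505). Its difference was -0.66 ± 0.11 (adjusted p = 0.000814) without that library, where 1 gene of the list was higher and 3 lower. In shMbd3 cells 2 were higher and 3 lower, and 2 and 2 without it. Klf4, which is known to induce Cdkn1a, was 8.0 CPM on average in shMbd3 cells, against 30.9 CPM in shControl cells (-1.94 ± 0.16, adjusted p = 5.02e-05; -1.77 without that library). E2f1 was higher in shMbd3 cells by 0.91 ± 0.27 (adjusted p = 0.0307), and by 0.38 ± 0.09 (adjusted p = 0.00986) without that library. Rb1 was lower there (-0.76 ± 0.19, adjusted p = 0.0158; -0.60 without it).

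The order of levels over the 6 M3 groups differed between members. By mean, Cdkn1a was highest in shMbd3 with CI994 (275.7 CPM), followed by shTet2 with CI994, shMbd3, shControl with CI994, shTet2 and shControl (100.2 CPM). Neighbours overlapped at shTet2 with CI994 and shMbd3, and at shControl with CI994 and shTet2. Ccnd3 had the same order, with 142.3 CPM in shMbd3 with CI994, against 24.1 CPM in shControl, and overlap between shTet2 with CI994 and shMbd3 alone. Ccne1 was highest in shMbd3 with CI994 (60.7 CPM) and lowest in untreated shTet2 (21.9 CPM), and of the neighbours only shMbd3 and shControl with CI994 overlapped. Ccnd1 was highest in untreated shMbd3 (1615 CPM) and lowest in shTet2 with CI994 (799 CPM). By mean, Cdkn2c was lower in both shMbd3 groups, at 27.2 and 26.6 CPM, than in the 4 other groups. Those averaged 35.2 to 36.2 CPM and overlapped along the order. By library the separation was not complete. The library labelled shControl replicate 1 had 28.3 CPM, below the 28.6 CPM of shMbd3 with CI994 replicate 1.
The genes most like each member across the 12 libraries, by Pearson's r of log2(CPM + 0.5) among 9952 candidates, are given as a description; the libraries share hairpins and treatment. They were Fgd3 (0.98) for Cdkn1a, Apbb2 (0.97) and Hmgcs1 (0.92) for Cdkn1b, Xdh (0.93) and Lgals3 (0.92) for Cdkn2c, and S100a3 and Abcb1a (both 0.97) for Cdkn2d. For the cyclins they were Mcm10 and Hint1 (both 0.97) for Ccnd1, Klhdc3 and Ifi30 (both 0.99) for Ccnd3, Cyfip2 (0.98) and Slc9a2 (0.97) for Ccne1, and Gpbp1 (0.99) and Naa15 (0.98) for Ccne2. Over the 11 libraries without the one labelled shControl replicate 1, r for these pairs was 0.93 to 0.99.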

How the data were processed

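RNA from 2 independent experiments per group was made into stranded total RNA libraries, per the labels' protocols, and reads were aligned with STAR to mm10, per the submitters' processing notes. The authors deposited RPKM per gene for 8 libraries and CPM per gene for 12 libraries; the counting tool is not given in the sources used here, and RPKM and FPKM could not be told apart. The depth behind the RPKM values is unknown (library sums 340168 to 382930), so no interval is given for them. The CPM values all came out as whole reads, to within 0.01 reads, which gave the totals per library; 3 reads correspond to 0.120 to 0.186 CPM, for counting error only. The file of M3 replicate 2 also held 7 columns that repeat other files in every row and were not counted again.

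The deposited values were divided by TMM factors and put on a log2 scale as log2(value + 0.5). A gene was kept if 2 or more libraries reached 1 RPKM, or 0.5 CPM in the other set. Limma 3.58.1 (R 4.3.3, empirical Bayes with trend and robust options) was fitted with group means to all libraries of a unit, with Benjamini-Hochberg adjustment over all genes tested and a threshold of 0.05. The fit was checked on simulated data. These had the same spread setting in every library of a unit and no GC trend, so the check does not cover the library that stood apart. Alternatives were the values as deposited, pseudocounts of 0.1 and 1, no filter, a replicate block, removal of each library's trend over the GC content of transcripts (known for 94.4% and 95.6% of tested genes), each library left out, and edgeR 4.0.16 and DESeq2 1.42.0 on the whole CPM reads. A library left out leaves its partner alone in the group, and that partner is then assumed to vary like the other groups. The replicate numbers were taken as names, not as pairs.

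The members, gene lists and tests were chosen with earlier results of these data known. The text names all members, Tet2 and Mbd3, and from each list at most 2 higher and 2 lower genes per comparison, by size, among those that passed and averaged 1 or more in the higher group. The genes named for likeness are from the 2 with the highest r, among genes of mean 5 CPM or more. Some genes that these rules allow are not reported here. Values of list genes without the library labelled shControl replicate 1 were added after seeing the data. Cell type markers are described by sums, and the mesenchymal ones in part also by counts of genes passing.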

Additional observations from a re-analysis of the deposited data

Results flagged for a closer look

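Among the 3 clones, Cdkn1a and Cdkn1b differed by an F test in the limma fit, with adjusted p of 0.0387 and 0.00305. Cdkn1a averaged 100.1 RPKM in M1, 89.6 RPKM in M2 and 68.8 RPKM in M3, and Cdkn1b 28.6, 46.8 and 29.9 RPKM in the same clones. Each clone is 1 line with 2 libraries, so a difference between clones cannot be told apart from any other difference between these lines.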

How the results depend on the processing

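Of 2177 recomputed member values, 2003 kept their direction and side of the threshold, 95 no longer passed, 78 newly passed and 1 reversed. The reversed one was Cdkn1b in shMbd3 against shControl, -0.00 and not passed, which was 0.39 (adjusted p = 0.0138) under the replicate block with the GC trend removed. The cause was not tested. Replicate numbers showed correlations of group deviations of -0.123 to 0.128 over 6 RPKM group pairs and 0.0958 to 0.524 over 15 CPM pairs. Of these, 1 RPKM pair and 14 CPM pairs were over 0.1. The labels tie no number to an experiment, so the numbers were not used as pairs, though the CPM values leave a shared source of spread possible. The replicate block alone ended no member call and gave 8 more. These were Cdkn1a in M2 (adjusted p = 0.0491), Ccnd1 in shMbd3 (0.27, adjusted p = 0.0187), Cdkn1b with CI994 in shControl (-0.50, adjusted p = 0.013) and shTet2 (-0.40, adjusted p = 0.0339), Cdkn1a (adjusted p = 0.0374) and Ccne2 (adjusted p = 0.0354) with CI994 in shTet2, and Cdkn1b (0.44, adjusted p = 0.0274) and Cdkn2d (-0.42, adjusted p = 0.0279) in shMbd3 within CI994. The counts of all genes passing moved most for the interactions. For shMbd3 with CI994, 10 genes passed, against 5 as deposited, 0 and 41 with pseudocounts of 0.1 and 1, 36 with no filter, 31 with the block, 76 with the GC trend removed, 363 with both, 0 by edgeR and 115 by DESeq2; 1631 had an unadjusted p under 0.05. For shTet2 with CI994, 88 passed, against 56 with a pseudocount of 0.1, 174 with the block, 468 with the GC trend removed, 1028 with both, 38 by edgeR and 267 by DESeq2. With the GC trend removed, 4798 genes passed for shTet2 (2996 otherwise; 2680 higher and 2118 lower, against 1339 and 1657), 3125 for CI994 in shMbd3 (1626), 3534 for shTet2 within CI994 (2045) and 4281 for shMbd3 within CI994 (2451). With the block as well these were 5866, 4167, 4496 and 5209, and the counts were 6340 for shMbd3 (4126) and 4900 for CI994 in shTet2 (3111). Leaving out 1 library gave 5606 to 8367 genes for the clones, 5331 to 7724 for M1, 4834 to 7677 for M2, 5081 to 7884 for M3 and 949 to 5912 among clones. It gave 1332 to 8108 for shTet2, 1588 to 8711 for shMbd3, 1096 to 8985, 863 to 7372 and 439 to 5360 for CI994 in shControl, shTet2 and shMbd3, 954 to 5189 and 1236 to 5648 for shTet2 and shMbd3 within CI994, and 0 to 4885 and 0 to 6305 for the interactions of shTet2 and shMbd3. Depth limits Cdkn1c and Ccnd2, at or under 3 reads in every CPM library.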
